A study of Homo sapiens with 204 samples.

Results

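The replication-dependent histone genes encode the linker histone H1 and the core histones H2A, H2B, H3 and H4 that package newly made DNA. They are transcribed in S phase from clustered gene copies, and their short mRNAs end in a stem-loop in place of a poly(A) tail, are processed by a machinery of their own and are degraded when DNA synthesis stops. Members were taken as every gene whose symbol is H1-1 to H1-5 or starts with H2AC, H2BC, H3C or H4C followed by a number, with pseudogenes left out. This gave 65 genes out of 41379 in the RNA-seq table, all of which were also among the 19217 genes of the Ribo-seq table. They comprise 5 H1, 15 H2A, 19 H2B, 11 H3 and 15 H4 genes, of which 52 lie on chromosome 6, 11 on chromosome 1, 1 (H4C16) on chromosome 12 and 1 (H2BC12L) on chromosome 21 (RefSeq, GRCh38.p14).

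The measurements come from A549 cells, a human lung adenocarcinoma line, transfected for 24 h with 40 nM siRNA against 1 of 75 ribosomal proteins, or with non-targeting siRNA as control. Of the targets, 44 are proteins of the large and 31 of the small ribosomal subunit. After 5 min in 100 µg/ml cycloheximide each lysate was divided between RNA-seq from a total RNA library kit, which counts reads over exons, and Ribo-seq of ribosome-protected fragments of 28 to 30 nt, counted over coding sequences. Each assay has 91 knockdown libraries and 11 control libraries. The 16 targets whose titles carry numbers have 2 libraries each, and the other 59 have 1. The numbered titles hold 6 controls, called 11_1, 11_2, 20_1, 20_2, 21_1 and 21_2, and the unnumbered titles 5. The labels name no separate cultures, so a p-value here weighs only library-to-library spread, part of which may be technical. Tests that pool targets also took the 2 libraries of a target as independent, so their p-values can be too small.

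Library totals ran from 18.8 M to 63.6 M counts in RNA-seq (median 27.8 M) and from 7.77 M to 57.2 M in Ribo-seq (median 23.8 M), where M stands for 1e6. Levels are given as counts per 1e6 counts of the library (CPM). A count of 0 allows up to 3 counts, which is at most 0.160 CPM in an RNA-seq library, and at most 0.386 CPM in a Ribo-seq library. The targeted mRNA was below its lowest control level in all 91 knockdown libraries. All 11 listed A549 markers had a median of at least 1 CPM, as did 1 of 4 blood cell markers (CD14), 1 of 4 fibroblast markers (COL1A1) and 0 of 3 endothelial markers. Members took a median of 0.529% of RNA-seq counts and 1.63% of Ribo-seq counts. One control stood apart: the summed RNA-seq level of the members, in CPM scaled by the trimmed mean of M values (TMM), was 15685 CPM in control 20_2, against 6473 to 10589 CPM in the other 10 controls. Its Ribo-seq library did not stand apart (27356 CPM, against 19849 to 28064 CPM in the others), and several of the RNA-seq values that rest on it are given also without it.

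The 4 stretches below show the 250 bases before the RefSeq start of 1 gene of each of 4 families (GRCh38.p14), shown because the families differ in the motifs they carry. H1-5 lies at chr6:27867589-27867838 on the minus strand, H2BC17 at chr6:27893175-27893424 on the plus strand, H3C10 at chr6:27809801-27810050 on the plus strand and H4C13 at chr6:27873535-27873784 on the minus strand. Capitals mark exact matches, on either strand, to CCAAT (the NF-Y element), TATAAA (the TATA box), ATTTGCAT (the element bound by POU2F1) or GGTCCG (part of the H4 element bound by HINFP).
H1-5: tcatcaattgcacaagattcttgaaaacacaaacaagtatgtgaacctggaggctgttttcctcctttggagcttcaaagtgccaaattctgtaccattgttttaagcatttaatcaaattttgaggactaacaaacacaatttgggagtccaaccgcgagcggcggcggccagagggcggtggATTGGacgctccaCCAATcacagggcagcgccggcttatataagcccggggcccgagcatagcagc
H2BC17: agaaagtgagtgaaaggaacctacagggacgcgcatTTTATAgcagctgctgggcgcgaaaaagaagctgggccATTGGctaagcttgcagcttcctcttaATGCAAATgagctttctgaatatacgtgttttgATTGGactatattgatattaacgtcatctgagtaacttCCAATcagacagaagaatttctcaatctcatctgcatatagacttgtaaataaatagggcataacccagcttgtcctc
H3C10: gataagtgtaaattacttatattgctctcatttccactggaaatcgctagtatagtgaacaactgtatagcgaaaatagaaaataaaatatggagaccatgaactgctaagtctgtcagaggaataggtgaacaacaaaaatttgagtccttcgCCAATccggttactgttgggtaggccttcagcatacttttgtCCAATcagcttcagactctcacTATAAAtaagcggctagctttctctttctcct
H4C13: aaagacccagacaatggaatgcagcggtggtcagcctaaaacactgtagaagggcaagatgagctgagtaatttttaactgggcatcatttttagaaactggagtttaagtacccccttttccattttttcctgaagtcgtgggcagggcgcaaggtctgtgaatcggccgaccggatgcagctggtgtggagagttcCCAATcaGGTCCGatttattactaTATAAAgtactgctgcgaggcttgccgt
H2BC17 and its divergent neighbour H2AC17 share this window, whose TATAAA and ATTTGCAT matches both read on the H2AC17 strand.

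Promoter sequences were at hand for 59 of the 65 members. CCAAT was found in all 5 H1, 14 H2A, 18 H2B and 9 H3 promoters, but in 3 of 13 H4 promoters, against 33.0% of the 27305 promoters in the table. ATTTGCAT was found in 11 of 14 H2A and 14 of 18 H2B promoters, 1 of 9 H3 promoters and none of the H1 or H4 promoters, against 1.66% of all promoters. GGTCCG was found in 12 of 13 H4 promoters and in 3 promoters of the other families, against 9.33% of all. TATAAA was found in 39 of the 59, against 11.1% of all. In 11 head-to-head pairs of an H2A and an H2B gene the windows of both partners overlap. Elements between such partners were therefore counted for both genes.

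A549 cells used a subset of the gene copies. After a filter of at least 1 CPM in at least 11 libraries, 50 members could be tested in RNA-seq and 54 in Ribo-seq, 48 of them in both, and 9 in neither. Per kilobase of RefSeq gene length, which was used for the 57 members no longer than 1000 bases, the highest median RNA-seq levels in knockdown libraries were those of H4C3 (531 CPM per kb, against 749.7 in controls) and H3C12 (494 CPM per kb, against 841 in controls). The highest in Ribo-seq knockdown libraries were H1-2 (1766 CPM per kb in knockdowns, against 2227 in controls) and H4C3 (1732 CPM per kb in knockdowns, against 2495 in controls). In control libraries the order differed. There H3C12 and H4C8 (755 CPM per kb) were highest in RNA-seq, and H4C2 (2719 CPM per kb) and H4C3 in Ribo-seq. The use was spread out: the largest member took 5.39% of the summed member level in RNA-seq (H3C12) and 9.11% in Ribo-seq (H1-2), and the 10 largest together 45.8% and 49.9%.

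The 9 members in neither test had few counts. H2AC1 and H2BC1, which are known from testis, had at most 2 and 6 RNA-seq counts in any library, and H1-1 had at most 12. H3C14 and H3C15, a duplicated pair of near-identical copies on chromosome 1, had at most 5 and 2 RNA-seq counts, and H4C14 and H4C15 beside them at most 22 and 2. How reads that match several copies were counted is not given in the sources used here, so the values of single copies are uncertain.

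H4C11 and H4C12 had mRNA reads but almost no counted footprints. How footprints that match several H4 copies were counted is not given, so these low counts are uncertain. RNA-seq counts of H4C12 had a lowest, median and highest value of 135, 627 and 2582 in knockdown libraries, against 542, 969 and 1949 in control libraries. Its footprints were at 0 in 63 of 91 knockdown libraries and in 7 of 11 control libraries, with at most 10 and 12 counts. H4C11 had a median of 400.0 RNA-seq counts in knockdown libraries, and in control libraries 306 to 1408 counts. Its footprints were at 0 in 57 of 91 knockdown libraries and 7 of 11 control libraries. H2BC18, the H2B gene with most mRNA, had a median RNA-seq level of 235 CPM in knockdown libraries and 394 CPM in control libraries, and a median footprint level of 35.8 CPM in knockdown libraries and 74.4 CPM in control libraries.

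Averaged over all knockdowns, histone mRNAs were lower than in controls in all 5 families. In RNA-seq, 47 of the 50 tested members fell (edgeR quasi-likelihood test, adjusted p under 0.05), against 17.2% of all 15526 tested genes. Only H3C8 lay above 0, without a call, while 13.4% of all genes were called higher. The median log2 fold change was -0.75 over tested members and -0.03 over all genes. The 3 not called were H4C11, H4C12 and H3C8. In Ribo-seq, 44 of 54 tested members fell, against 13.5% of all 12793 tested genes, and all 54 lay below 0, with a median of -0.73, while 13.2% of all genes were called higher. All 12 tested H2A and all 15 tested H2B genes fell in RNA-seq, as did all 4 tested H1, 7 of 8 H3 and 9 of 11 H4 genes. In Ribo-seq it was 3 of 4 H1, 10 of 14 H2A, 14 of 17 H2B, 8 of 9 H3 and 9 of 10 H4 genes.

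**Figure D1:**
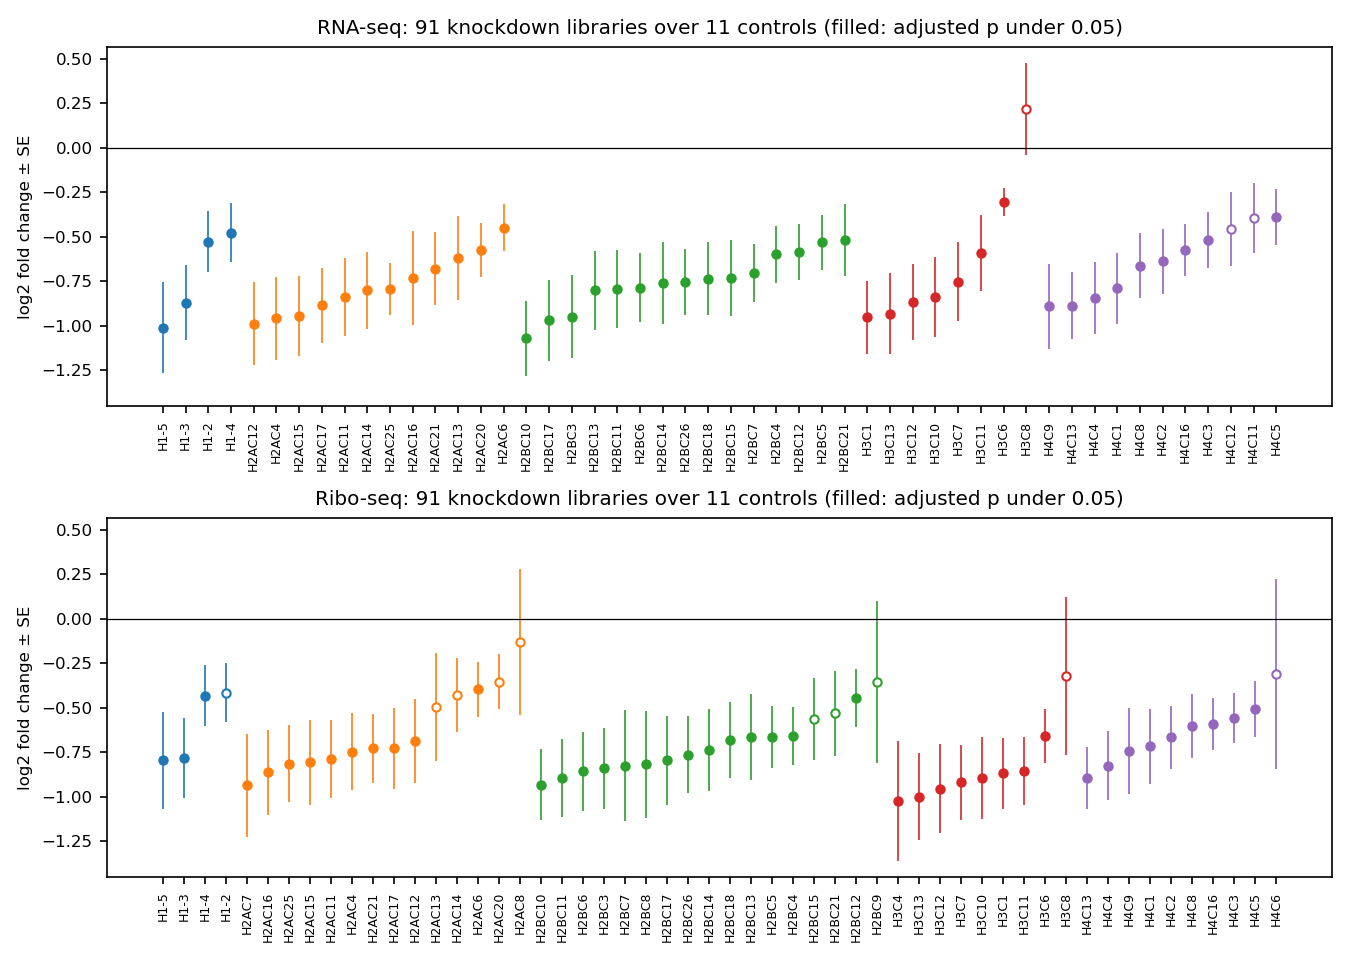
Log2 fold change (y axis, with its SE as bars) of each tested member (x axis, coloured by family) for 91 knockdown libraries over 11 control libraries, in RNA-seq (top) and Ribo-seq (bottom); filled points passed the test. All but H3C8 lie below 0 in RNA-seq, and all 54 lie below 0 in Ribo-seq.

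The calls rested on both sets of titles together. Within the numbered titles alone 19 of 50 members were called lower in RNA-seq, against 5.71% of all genes, and 18 of 54 in Ribo-seq, against 8.99%. Within the unnumbered titles alone it was 23, against 5.8% of all genes, and 13, against 1.92%. The medians over members were -0.72 and -0.80 in RNA-seq and -0.58 and -0.87 in Ribo-seq for numbered and unnumbered titles. Without control 20_2, 40 members were called lower in RNA-seq, against 15.7% of all genes, with a median of -0.66, and H1-2, H1-4, H2AC13, H2AC16, H2BC21, H3C11 and H4C5 lost their calls. Fewer cells in S phase and less histone mRNA per cell cannot be told apart in these bulk libraries.

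Among the H1 genes, which encode the linker histones, H1-5 fell most. Its RNA-seq level had a lowest, median and highest value of 6.00, 44.0 and 115 CPM in knockdown libraries, against 71.3, 82.6 and 214 CPM in control libraries, a log2 fold change of -1.01 ± 0.25 (SE, edgeR adjusted p = 0.0013). In 72 of the 91 knockdown libraries it was below every control, and the 2 ranges overlapped. H1-4 fell least in RNA-seq, with a median of 163 CPM in knockdown libraries and 251 CPM in control libraries (-0.48 ± 0.16, edgeR adjusted p = 0.0197). H1-2, the H1 gene with most footprints, had 499.6, 1291 and 2849 CPM in knockdown libraries of Ribo-seq, against 1408, 1628 and 2891 CPM in control libraries (-0.42 ± 0.17, edgeR adjusted p = 0.0502), which missed the threshold. H1-3, with the highest H1 mRNA level, fell in RNA-seq (-0.87 ± 0.21) and in Ribo-seq (-0.78 ± 0.22).

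Among the H2A genes, H2AC12 fell most in RNA-seq, with 17.04, 86.6 and 199 CPM in knockdown libraries, against 128, 158 and 401 CPM in control libraries (-0.99 ± 0.24, edgeR adjusted p = 0.000664). H2AC17 had 52.1, 212 and 512 CPM in knockdown libraries, against 281, 345 and 898 CPM in control libraries (-0.88 ± 0.21). H2AC6, on the proximal part of the chromosome 6 cluster, was the H2A gene that fell least, with a median of 143 CPM in knockdown libraries and 197 CPM in control libraries (-0.45 ± 0.13). Its footprints had a median of 574 CPM in knockdown libraries and 783 CPM in control libraries (-0.40 ± 0.16, edgeR adjusted p = 0.0473). H2AC20 was called in RNA-seq (-0.57 ± 0.15), but not in Ribo-seq (-0.35 ± 0.15, edgeR adjusted p = 0.0764), where its knockdown libraries reached 942 CPM, above the highest control of 391 CPM.

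Among the H2B genes, H2BC10 had the largest fall of all members in RNA-seq. It had 10.97, 48.5 and 105 CPM in knockdown libraries, against 87.0, 95.9 and 219 CPM in control libraries (-1.07 ± 0.21, edgeR adjusted p = 4.71e-05). In Ribo-seq it had 25.5, 144 and 289 CPM in knockdown libraries, against 221, 265 and 328 CPM in control libraries (-0.93 ± 0.20). It was below every control in 82 of 91 knockdown libraries in RNA-seq and in 83 in Ribo-seq, the most of any member in each assay. H2BC4, H2BC5, H2BC12, H2BC18 and H2BC21 belong to the 8 members whose RefSeq span exceeds 1000 bases, which for H2BC12 overlaps H4C9. H2BC4 had a median of 239.6 CPM in knockdown libraries and 346 CPM in control libraries (-0.60 ± 0.16), and H2BC21 fell least of the tested H2B genes in RNA-seq (-0.52 ± 0.20, edgeR adjusted p = 0.0435). The 6 tested long-span members had a median log2 fold change of -0.56 in RNA-seq, against -0.79 over the 44 shorter ones.

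Among the H3 genes, H3C12 carried most mRNA. It had 63.3, 253 and 559 CPM in knockdown libraries, against 349, 431 and 985 CPM in control libraries (-0.87 ± 0.21, edgeR adjusted p = 0.00105). Its footprints had 79.1, 497 and 1266 CPM in knockdown libraries, against 783, 910.4 and 1175 CPM in control libraries (-0.95 ± 0.25). The ranges overlapped in both assays, with 68 and 79 knockdown libraries below every control. H3C10 had the most H3 footprints, with a median of 603 CPM in knockdown libraries and 1153 CPM in control libraries (-0.90 ± 0.23), and H3C1 had the largest H3 fall in RNA-seq (-0.95 ± 0.20). H3C6 fell least of the called H3 genes in RNA-seq, with a median of 10.9 CPM in knockdown libraries and 12.8 CPM in control libraries (-0.30 ± 0.08). Its footprints fell by an amount near the median of the members, with 10.7 CPM in knockdown libraries and 16.8 CPM in control libraries (-0.66 ± 0.15), and were below every control in 78 of 91 knockdown libraries. H3C8, at 0.0998, 0.553 and 1.54 CPM in knockdown libraries and 0.233, 0.464 and 0.928 CPM in control libraries, did not pass the test (0.22 ± 0.26, edgeR adjusted p = 0.559), with a mean of 17.3 counts per library.

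Among the H4 genes, the copies with most mRNA, H4C3 and H4C8, fell by intermediate amounts. H4C3 had 79.1, 215 and 455 CPM in knockdown libraries, against 261, 304 and 555 CPM in control libraries (-0.52 ± 0.16, edgeR adjusted p = 0.00772), and H4C8 had a log2 fold change of -0.66 ± 0.18. H4C9 fell most in RNA-seq (-0.89 ± 0.24) and H4C13 most in Ribo-seq. H4C13 had 20.2, 89.2 and 277 CPM of footprints in knockdown libraries, against 139.9, 174 and 195 CPM in control libraries (-0.89 ± 0.18, edgeR adjusted p = 4.72e-05). H4C5 fell least among the called H4 genes in RNA-seq, with a median of 139.9 CPM in knockdown libraries and 174 CPM in control libraries (-0.39 ± 0.16, edgeR adjusted p = 0.0491).

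Several members were measured by few footprints. H2AC7 and H3C4, which overlap in the annotation, had the largest falls of their families in Ribo-seq. H2AC7 had 0.0608, 1.38 and 4.63 CPM in knockdown libraries, against 1.52, 2.76 and 4.38 CPM in control libraries (-0.94 ± 0.29, edgeR adjusted p = 0.00972). H3C4 had 0.122, 2.81 and 18.3 CPM in knockdown libraries, against 0.689, 7.31 and 13.1 CPM in control libraries (-1.02 ± 0.34, edgeR adjusted p = 0.0166), and its knockdown libraries spanned the controls. H2AC8 (-0.13 ± 0.41), H2BC9 (-0.35 ± 0.45), H3C8 (-0.32 ± 0.44) and H4C6 (-0.31 ± 0.53) did not pass the test. Also not called in Ribo-seq were H1-2, H2AC13, H2AC14, H2AC20, H2BC15 and H2BC21. H2BC5, with more footprints than any other H2B gene, was called (-0.66 ± 0.17), with a median of 437 CPM in knockdown libraries and 749 CPM in control libraries.

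Members fell in each gene cluster that could be tested. The 21 tested members of the distal part of the chromosome 6 cluster (27132316 to 27893891) had a median log2 fold change of -0.80 in RNA-seq, and the 21 of the proximal part (25726063 to 26285534) one of -0.66. On chromosome 1 the 5 tested members between 149782689 and 149887965 had a median of -0.68, and H2AC25 and H2BC26 at 228457364 to 228458558 one of -0.77. H4C16 on chromosome 12 had -0.57. In 11 pairs an H2A and an H2B gene stand head to head, with 193 to 247 bases between their RefSeq starts. In the 8 pairs with both partners tested in RNA-seq the partners' log2 fold changes differed by a median of 0.07 and at most 0.21, as for H2AC17 (-0.88) and H2BC17 (-0.97). In Ribo-seq, over 10 pairs, the difference had a median of 0.17 and reached 0.69 for H2AC8 and H2BC8, where footprints were few.

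The size of the fall differed widely between targets. The summed level of the 65 members, taken as a log2 ratio to the mean control of the same title set, had a median over the 75 targets of -0.73 in RNA-seq and -0.71 in Ribo-seq. It ran from -2.46 to 0.06 in RNA-seq and from -2.30 to 0.16 in Ribo-seq, whereas single controls lay between -0.31 and 0.70 in RNA-seq and between -0.32 and 0.18 in Ribo-seq. Of the 91 knockdown libraries, 66 had a summed level below every control in RNA-seq, and likewise 66 in Ribo-seq. The 2 libraries of a target differed by a median of 0.08 in RNA-seq (at most 0.19, RPS10) and 0.05 in Ribo-seq (at most 0.29, RPS3).

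**Figure D2:**
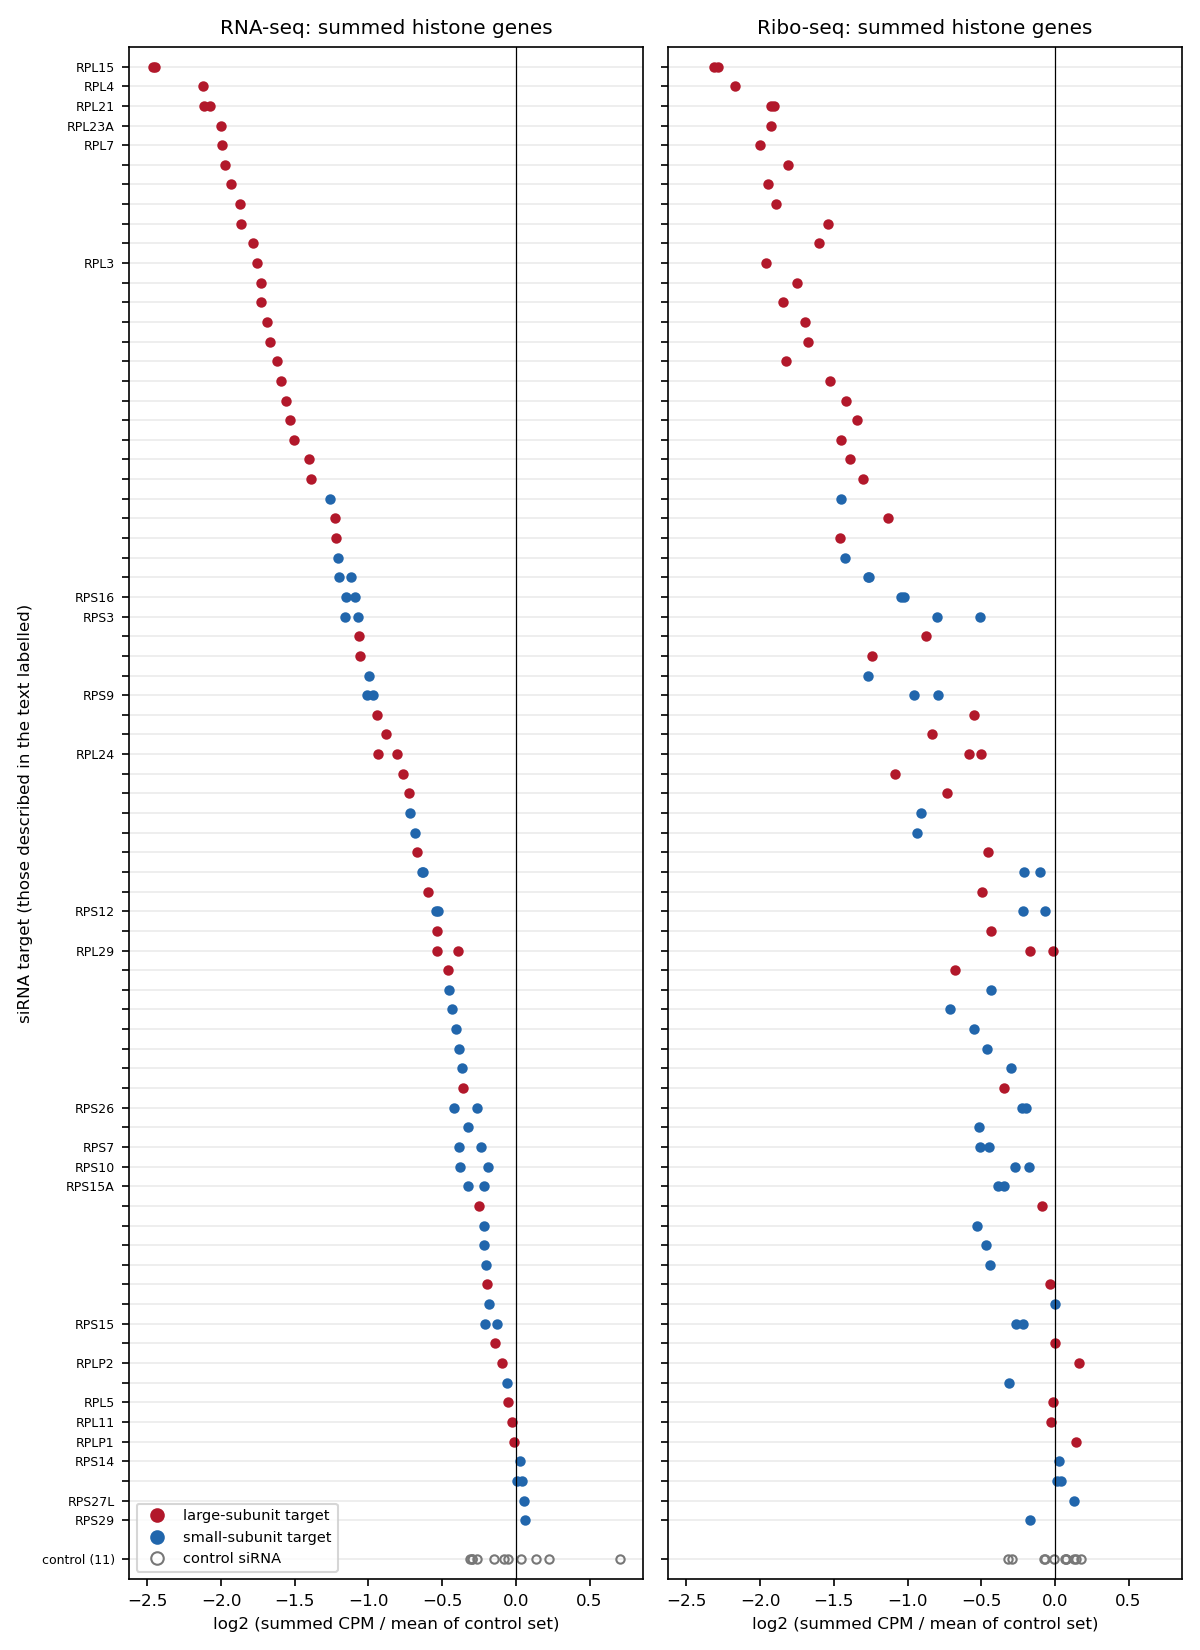
Log2 ratio of the summed member CPM to the mean control of the same title set (x axis) for each siRNA target (y axis, ordered by RNA-seq, with the targets described in the text labelled), with controls at the bottom; each point is 1 library. Large-subunit targets fill the low end, down to -2.46 for RPL15, and the control at 0.70 in RNA-seq is 20_2.

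The 5 lowest targets in RNA-seq were RPL15, RPL4, RPL21, RPL23A and RPL7. RPL15 libraries had 1763 and 1744 CPM in RNA-seq and 4974 and 5081 CPM in Ribo-seq, which is 18.2% of the mean control level in RNA-seq (log2 ratio -2.46, and -2.26 without control 20_2) and 20.3% in Ribo-seq. RPL21 libraries had 2220.4 and 2287 CPM in RNA-seq and 6516 and 6614 CPM in Ribo-seq (log2 ratios -2.10 and -1.92). Without control 20_2 its RNA-seq ratio was -1.90, and RPL21 was then no longer among the 5 lowest. RPL4 (1652 CPM in RNA-seq), RPL23A (1797 CPM) and RPL7 (1800.05 CPM) have 1 library each, with no replicate, against 6473 to 8397 CPM in the 5 unnumbered controls. In Ribo-seq the 4 lowest were RPL15 (-2.30), RPL4 (-2.17), RPL7 (24.9% of control) and RPL3 (-1.96).

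At the other end, histone levels were close to those of the controls. Among the highest ratios in RNA-seq were those of RPS29 and RPS27L (0.06 each), RPS14 (0.03) and RPLP1 (-0.01), and in Ribo-seq those of RPLP2 (0.16), RPLP1 (0.14), RPS27L (0.13) and RPS14 (0.03). The Ribo-seq sums of RPLP2 (25321 CPM), RPLP1 (24956 CPM) and RPS27L (24728 CPM) were above the 5 unnumbered controls (21439 to 23846 CPM). Relative to the 2 controls of its own run of columns RPS29 had -0.06 in RNA-seq. RPLP1 and RPLP2 form the stalk of the large subunit, and RPS27L is a p53-induced paralogue of RPS27. RPL5 (-0.05 and -0.01) and RPL11 (-0.03 and -0.02), which join 5S rRNA in a particle that can bind MDM2, were the large-subunit targets outside the stalk nearest to 0 in RNA-seq. CDKN1A, which encodes a p53-induced inhibitor of cyclin-dependent kinases and was chosen after its values were seen, had RNA-seq log2 ratios of -0.07 in RPL5, 0.16 in RPL11, -1.37 in RPS27L and -0.55 in RPS14 knockdowns, against 2.02 in RPL15 and 2.52 in RPL4 knockdowns. These targets were picked, and others did not follow the same order. CDKN1A had 0.49 in RPS29 (summed histone ratio 0.06), 1.30 in RPS7 (-0.31) and -0.33 in RPL29 (-0.46) knockdowns. The part of CDKN1A in the histone levels was not tested.

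Histone levels were lower after knockdown of large- than of small-subunit proteins. The summed ratio was under -1 for 26 of 44 large-subunit targets and for 5 of 31 small-subunit targets in RNA-seq, and for 26 and 5 in Ribo-seq. Without control 20_2 it was 26 and 2 in RNA-seq. Medians over targets were -1.31 for the large and -0.36 for the small subunit in RNA-seq, and -1.33 and -0.46 in Ribo-seq. In the direct test, 48 of 50 members were lower in large-subunit knockdowns in RNA-seq, against 16.4% of all genes, and 1, H3C8, was higher, against 15.2% of all genes. H3C6 was not called. In Ribo-seq 41 of 54 members were lower, against 11.2% of all genes. The direct test took the 2 libraries of a target as independent. Such libraries make up 24 of the 43 small-subunit and 8 of the 48 large-subunit libraries. Within the unnumbered titles alone, with 1 library per target, 47 members were lower in RNA-seq, against 14.4% of all genes, and 21 in Ribo-seq, against 5.65%.

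H4C5 had the smallest p of the members in this contrast in RNA-seq, with a median of 90.8 CPM in large- and 166 CPM in small-subunit libraries (-0.67 ± 0.10, edgeR adjusted p = 2.18e-08). H2BC21 had medians of 70.0 CPM in large- and 173 CPM in small-subunit libraries (-0.84 ± 0.13, edgeR adjusted p = 8.21e-08). H3C8, by contrast, had 0.748 CPM in large- and 0.401 CPM in small-subunit libraries (0.44 ± 0.17, edgeR adjusted p = 0.0436), while its footprints were called lower (-1.31 ± 0.33). Median footprint levels of H3C8 were 0.557 CPM in large- and 0.840 CPM in small-subunit libraries, where 1 library reached 18.4 CPM. Within the unnumbered titles alone its footprints were not called (-0.81 ± 0.31, edgeR adjusted p = 0.0771). H2AC20 footprints did not differ by the test, with 252 CPM in large- and 246 CPM in small-subunit libraries (-0.02 ± 0.11, edgeR adjusted p = 0.924), although its mRNA did (-0.39 ± 0.11). Also among members not called in Ribo-seq were H2AC12 (-0.11 ± 0.18) and H2AC6 (-0.23 ± 0.11).

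**Figure D3:**
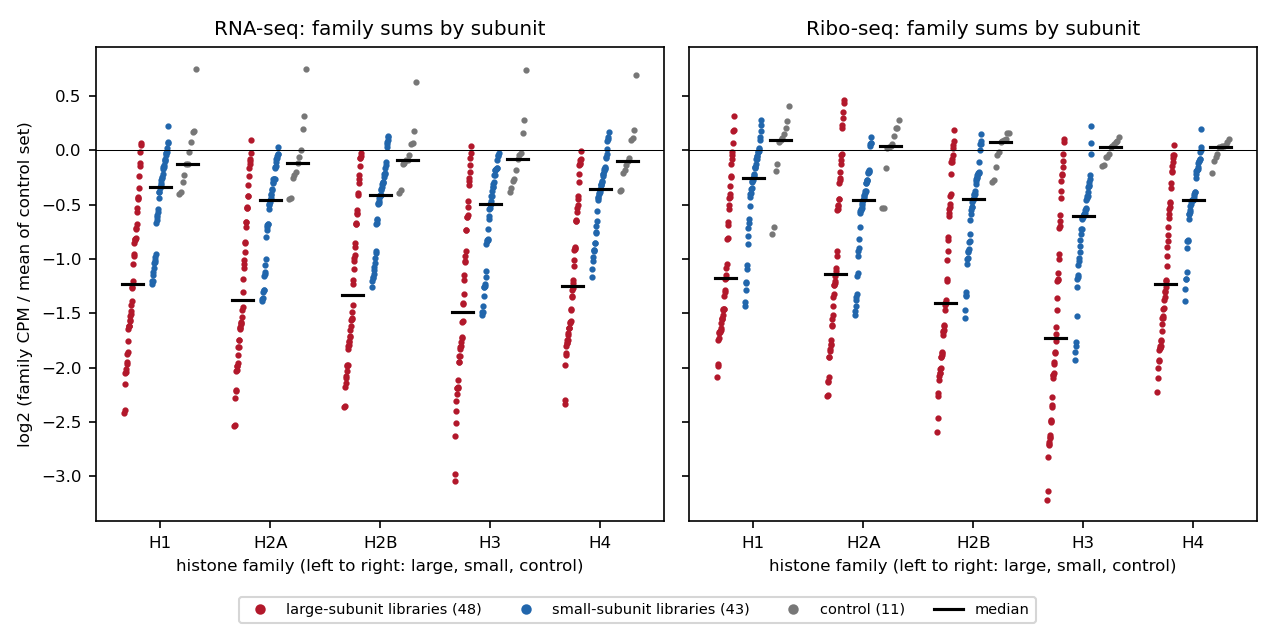
Log2 ratio of each family's summed CPM to the mean control of the same title set (y axis) for large-subunit, small-subunit and control libraries (left to right within each family on the x axis); each point is 1 library and bars are medians. H3 has the lowest medians in large-subunit libraries, -1.49 in RNA-seq and -1.73 in Ribo-seq.

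By family, large-subunit libraries had median ratios in RNA-seq of -1.23 for H1, -1.37 for H2A, -1.33 for H2B, -1.49 for H3 and -1.25 for H4, and small-subunit libraries of -0.34, -0.45, -0.41, -0.50 and -0.35. Without control 20_2 the small-subunit medians were -0.25, -0.41, -0.32, -0.42 and -0.25. In Ribo-seq H3 again had the lowest medians, -1.73 in large- and -0.61 in small-subunit libraries. Shares of core histone footprints per kb cover only the members no longer than 1000 bases. They leave out H2BC4 and H2BC5, the H2B genes with the highest mean footprint levels. The H3 share had a median of 13.6% in knockdown libraries and 15.9% in control libraries. The H2A share had a median of 25.6% in knockdown libraries and 22.9% in control libraries. The ranges overlapped for each. Footprint levels of H1 and H2A also differed between controls by their run of columns in the table. Summed H1 footprints were 6407 to 7694 CPM in the 4 controls of run 1, against 3319 to 4095 CPM in run 2 and 3395 to 3541 CPM in run 3, and H2A footprints 5786 to 6409.7 CPM, 3538 to 4136 CPM and 3650.2 to 3653 CPM. The run has no label, and its part in the H1 and H2A footprint ratios was not tested.

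The 16 targets with 2 libraries each could be tested singly against the 6 numbered controls. Knockdown of the large-subunit proteins RPL15 and RPL21 lowered nearly every member: in RPL15 libraries 49 of 50 members were called lower in RNA-seq, against 18.9% of all genes, and 51 of 54 in Ribo-seq, against 20.7%. In RPL21 libraries 49 members were lower in RNA-seq, against 17.3% of all genes, and 51 in Ribo-seq, against 19.8%. The median over members in RNA-seq was -2.86 for RPL15 and -2.31 for RPL21, and -2.65 and -2.09 without control 20_2. H1-5 changed most in both in RNA-seq (-4.20 ± 0.33 and -3.20 ± 0.31), while H3C12 had -3.21 ± 0.26 in RPL15 and -2.64 ± 0.25 in RPL21 libraries, and H4C5 had -1.90 ± 0.20 and -1.33 ± 0.20. RPL24 had 44 members lower in RNA-seq, against 13.7% of all genes, and 36 in Ribo-seq, against 16.2%. RPL29 had 14, against 5.55%, and 11, against 6.41%. Without controls 21_1 and 21_2, the numbered controls outside run 1, the RPL29 counts were 38 in RNA-seq, against 18.4% of all genes, and 18 in Ribo-seq, against 9.11%.

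Among the small-subunit targets, knockdown of RPS3, RPS9 and RPS16 lowered most of the members. RPS3 had 47 lower in RNA-seq, against 13.3% of all genes, and 44 in Ribo-seq, against 21.2%. RPS9 had 45, against 12.5%, and 43, against 16.6%. RPS16 had 47, against 15.8%, and 44, against 19.2%. Their RNA-seq medians over members lay between -1.19 (RPS3) and -1.03 (RPS9). The RPS16 libraries stand in runs 2 and 3 of the columns, whereas 4 of the 6 numbered controls stand in run 1. Relative to the controls of their own runs the summed RPS16 ratio was -0.76 in RNA-seq, in place of -1.12, and -0.82 in Ribo-seq, in place of -1.03. By family the RPS16 footprint ratios to the numbered controls were -1.41 for H1 and -1.43 for H2A, against -0.59 for H4. RPS12 libraries had 29 members called lower in RNA-seq, against 13.9% of all genes, and 16 in Ribo-seq, against 16.8%, and without controls 21_1 and 21_2 it was 28 in Ribo-seq, against 20.5%.

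In RPS26, RPS15, RPS7, RPS10 and RPS15A libraries fewer members were called in RNA-seq, with medians of -0.37, -0.22, -0.35, -0.23 and -0.31 in this order. These medians rested on control 20_2, without which they were -0.19, 0.00, -0.14, -0.04 and -0.09. RPS26 had 10 lower in RNA-seq, against 8.71% of all genes, and 15 in Ribo-seq, against 13.4%. RPS15 had 6, against 18.9%, and 20, against 13.3%. RPS7 had 4, against 7.6%, and 30, against 12.7%, and without control 20_2 it had 8 in RNA-seq, against 20.0% of all genes. RPS10 had 2, against 8.15%, and 15, against 13.6%. RPS15A had 1, against 8.5%, and 26, against 9.65%. In RNA-seq the shares of members called for RPS15, RPS10 and RPS15A were thus below those of all genes.

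Leaving out controls 21_1 and 21_2, a choice made after the data were seen, gave more calls for these targets. In RNA-seq RPS26 then had 21 members lower, against 18.7% of all genes, RPS10 had 13, against 15.1%, RPS7 had 10, against 9.16%, and RPS15A had 4, against 7.14%. In Ribo-seq RPS26 had 28, against 21.6%, RPS10 had 28, against 18.1%, RPS15 had 34, against 16.1%, and RPS15A had 44, against 14.4%. Relative to the 4 controls of run 1 alone, the summed RNA-seq ratio was -2.59 for RPL15 and -2.23 for RPL21.

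**Figure D4:**
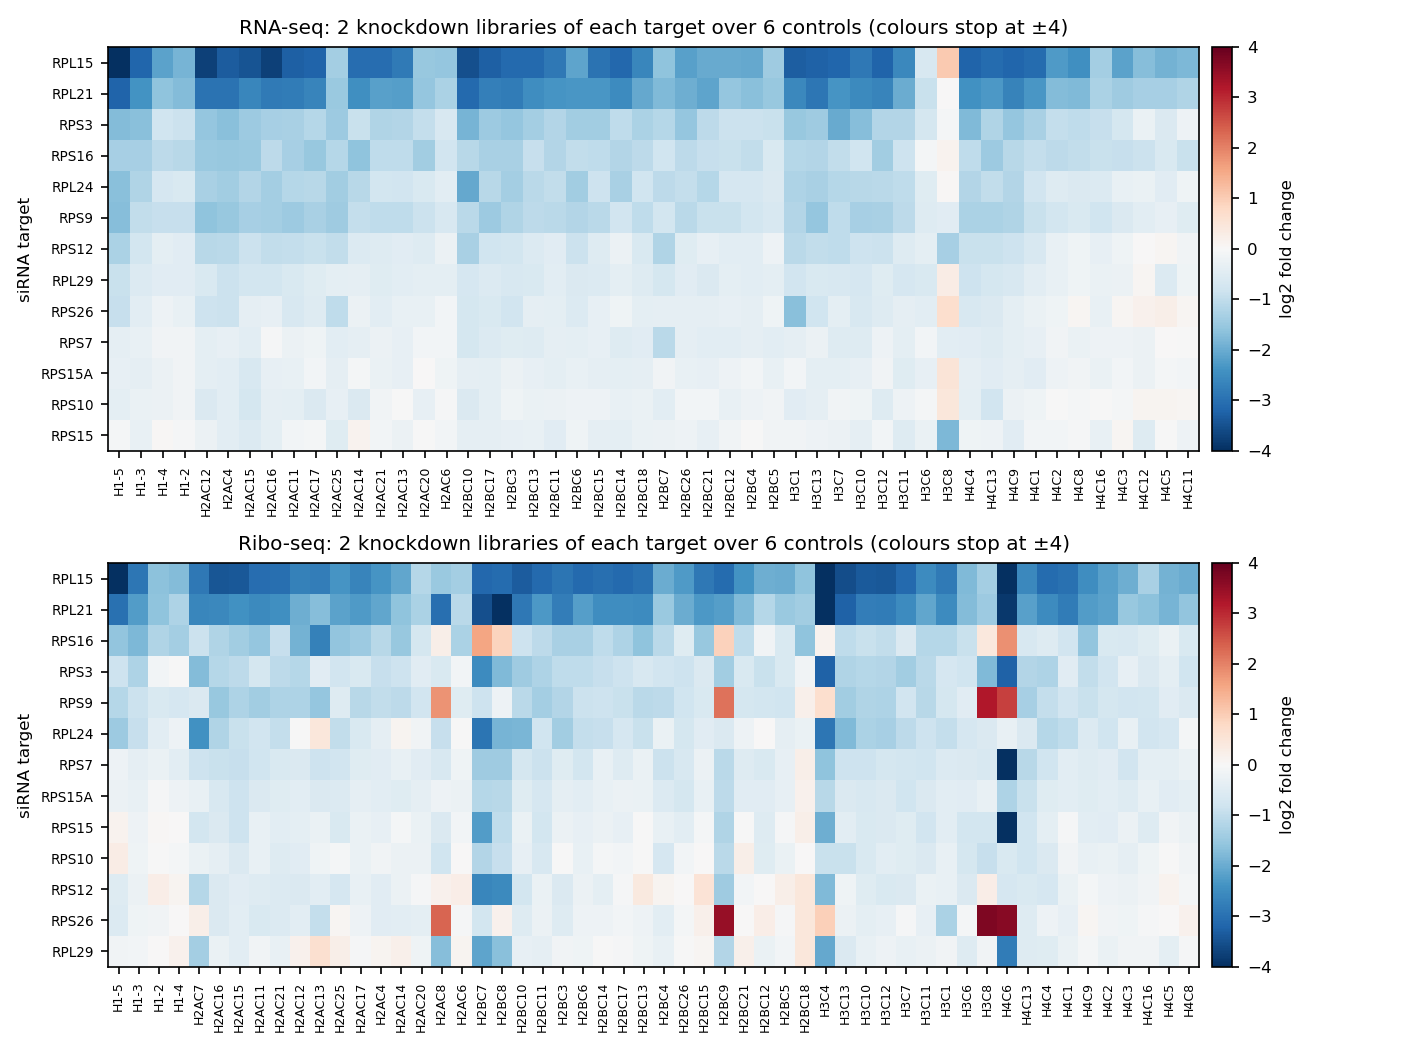
Log2 fold change (colour, ending at 4 in either direction) of each tested member (x axis, grouped by family) in 13 of the targets with 2 libraries (y axis, ordered by the median) over 6 controls, RNA-seq on top and Ribo-seq below. RPL15 and RPL21 are lowest across families, and H3C8, H2AC8, H2BC9 and H4C6 stand out in RPS9 and RPS26 footprints.

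Calls in the higher direction fell on few members, most of them with few counts. H3C8 mRNA was called higher in RPL15 libraries (1.04 ± 0.40, edgeR adjusted p = 0.0464), a call that was lost without controls 21_1 and 21_2 (edgeR adjusted p = 0.0584). Footprints of H3C8, H2AC8, H2BC9 and H4C6 were called higher in RPS9 and RPS26 libraries. H3C8 had 34 and 255 footprints in the 2 RPS9 libraries and 37 and 266 in the 2 RPS26 libraries, against 11 to 19 in the 4 controls of the same run of columns and 1 to 36 in its other 26 knockdown libraries. H1-1, which was not tested, had 13 and 99, and 10 and 90, against 0 in those 4 controls. In both targets the second library held most of these footprints. RNA-seq counts of H3C8 were 11 and 12 in RPS9 and 11 and 39 in RPS26 libraries, against 8 to 24 in the 4 controls. In the 7 controls of the other runs H3C8 had 18 to 73 footprints and H4C6 20 to 65, against 0 to 1 for H4C6 in run 1.

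No member was called for a change of footprints beyond that of its mRNA. Translation efficiency, the change in footprints relative to mRNA, was called in 0 of 48 members by edgeR's interaction of assay and knockdown, against 0.024% of all 12480 genes lower and 0.329% higher. By unadjusted p under 0.05 it was 1 member, against 642 of all 12480 genes. With limma on per-lysate ratios, 0 members were called, against 2.37% of genes lower and 1.55% higher. By limma 7 members were under an unadjusted p of 0.05, a count that cannot be weighed without that over all genes. The edgeR log2 differences of members ran from -0.56 to 0.34, with a median of 0.01. The edgeR model held no term for the lysate that both assays share, whereas the limma ratios pair them. By limma the differences ran from -0.84 to 0.34, and the smallest limma adjusted p was 0.0728. Over the unnumbered targets the summed ratio in Ribo-seq minus that in RNA-seq had a median of 0.00 (from -0.32 to 0.39). Over the numbered targets it was 0.12 with control 20_2 and -0.04 without it.

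Members varied together from library to library. Over the 59 unnumbered knockdown libraries, pairs of tested members had a median Pearson r of 0.94 in RNA-seq (50 members) and 0.88 in Ribo-seq (54 members), on log2 CPM. In RNA-seq the median r with the other members was lowest for H3C8 (-0.38) and H3C6 (0.29). These r describe values that share library, depth and scaling.

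Genes that make and process histone mRNA were lower in part. Of the 23 listed genes, 9 fell and 2 rose in RNA-seq, and 10 fell and 2 rose in Ribo-seq, with medians of -0.16 and -0.17. Of all tested genes, 17.2% fell and 13.4% rose in RNA-seq, and 13.5% fell and 13.2% rose in Ribo-seq. NPAT, the coactivator of histone gene transcription, had 3.18, 14.6 and 30.4 CPM in knockdown libraries, against 4.39, 20.6 and 28.2 CPM in control libraries (-0.72 ± 0.14, edgeR adjusted p = 5.99e-05). SLBP, which binds the stem-loop, had 6.07, 30.8 and 67.3 CPM in knockdown libraries, against 34.5, 46.8 and 55.4 CPM in control libraries (-0.57 ± 0.13, edgeR adjusted p = 0.000364). The ranges overlapped for both. CASP8AP2, which works with NPAT, fell (-0.78 ± 0.22), and CCNE2, a cyclin that activates CDK2 at the start of S phase, fell too (-1.21 ± 0.27), while CTIF, a cap-binding translation factor, rose (0.53 ± 0.09).

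Of the 11 listed histone mRNA decay genes, 2 fell and 1 rose in RNA-seq, and 1 fell in Ribo-seq, with medians of -0.05 and 0.07, shares near or below the 17.2% and 13.4% of all genes in RNA-seq and the 13.5% lower in Ribo-seq. UPF1, the helicase that acts in this decay, was not called (41.7 CPM in knockdown libraries and 44.8 CPM in control libraries, medians; -0.06 ± 0.08). ERI1, the exonuclease that trims the stem-loop, fell (-0.35 ± 0.13), TUT7, which adds uridines to histone mRNA, fell too (-0.32 ± 0.13), and LSM1, of the ring that binds such tails, rose (0.21 ± 0.06). LSM4 was not called (-0.17 ± 0.10).

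Of 23 chaperone and deposition genes, 7 fell and 2 rose in RNA-seq, and 13 fell and 1 rose in Ribo-seq, with medians of -0.22 and -0.27, against 17.2% of all genes lower and 13.4% higher in RNA-seq and 13.5% and 13.2% in Ribo-seq. ASF1B, an H3-H4 chaperone, had a median of 17.8 CPM in knockdown libraries and 41.4 CPM in control libraries (-1.20 ± 0.24). HJURP, the chaperone of CENPA, fell (-0.92 ± 0.20), MMS22L, which acts at replication forks, fell (-0.91 ± 0.18), and so did HIRA, which deposits H3.3 (-0.36 ± 0.07). Of 11 replication-independent variants, 4 fell and 1 rose in RNA-seq, and 4 fell and 2 rose in Ribo-seq, with medians of -0.21 and -0.27, beside the same shares of all genes. The 4 that fell in RNA-seq were H2AX (-1.11 ± 0.18), H2AZ1 (-0.74 ± 0.15), H2AZ2 (-0.46 ± 0.09) and H1-10 (-0.47 ± 0.10).

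Of the 16 DNA synthesis genes, 12 fell in RNA-seq, against 17.2% of all genes, and 14 in Ribo-seq, against 13.5%, with medians of -0.71 and -0.83. CDC6, which loads the replicative helicase, had 14.03, 47.8 and 127 CPM in knockdown libraries, against 81.1, 94.0 and 102 CPM in control libraries (-0.91 ± 0.22, edgeR adjusted p = 0.000731). FEN1, the flap nuclease, fell (-0.99 ± 0.20), and the helicase subunits MCM4 (-0.83 ± 0.20) and MCM7 (-0.84 ± 0.18) fell as well. The mean log2 ratio of the 16 genes moved with the summed histone ratio over knockdown libraries. Pearson's r was 0.95 over the 59 unnumbered and 0.96 over the 32 numbered libraries in RNA-seq. Points share library, scaling and controls, and the libraries of a target are not independent, so r is a description. RPL15 had a mean of -1.98 for these genes in RNA-seq, RPL4 one of -1.99 and RPL11 one of -0.02.

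**Figure D5:**
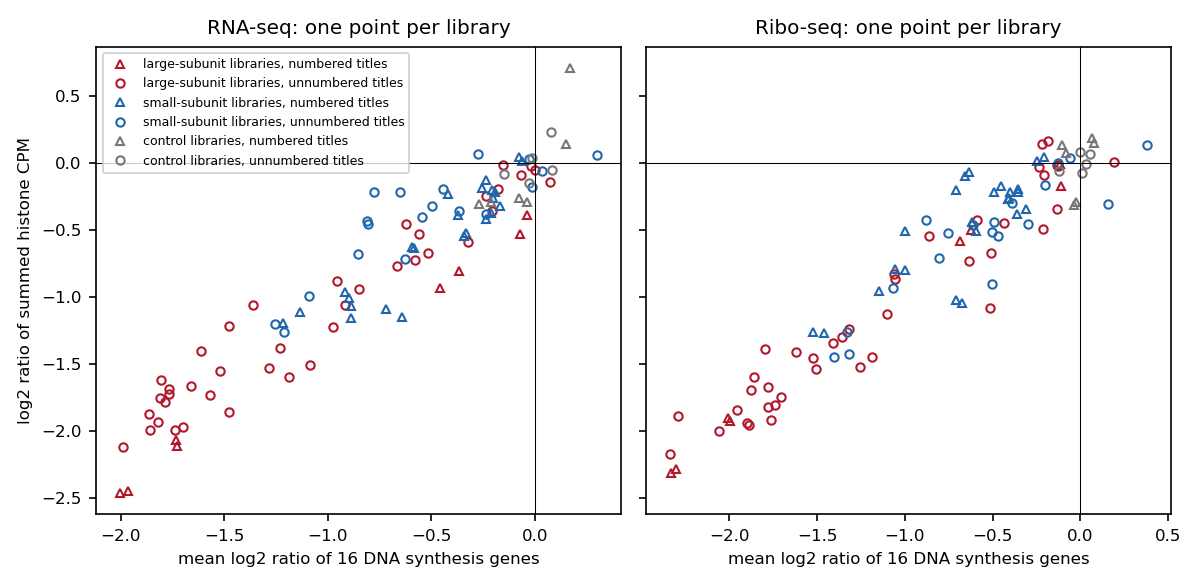
Log2 ratio of the summed member CPM (y axis) against the mean log2 ratio of 16 DNA synthesis genes (x axis), each to the mean control of the same title set; each point is 1 library, in RNA-seq (left) and Ribo-seq (right). Large-subunit libraries reach furthest to the lower left, and the control at 0.70 in RNA-seq is 20_2.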

How the data were processed

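The authors deposited whole-number read counts per Ensembl gene, not normalized. The names of the deposited tables give exons as the counted regions of RNA-seq and coding regions for footprints. The build was GRCh38, and STAR 2.6.1 and cutadapt 1.8.1 are named beside bcl2fastq 2.20.0.422, per the submitters' processing notes. The counting program, the strand setting and how reads matching several genes were treated: not given in the sources used here. Therefore near-identical, overlapping (H2AC7 with H3C4, H2BC12 with H4C9, H3C15 with H4C15) and antisense copies are uncertain. Columns were matched to libraries by name and 0 stayed unmatched; the names 21_1 and 21_2 are those of control columns that give only a group, and RPS15 columns carry another sample number than the RNA-seq titles. Symbols came from the Ensembl IDs (40811 of 41379 and 19119 of 19217 matched); 13 pseudogenes were left out.

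Counts were tested with edgeR 4.0.16 in R 4.3.3 (glmQLFit, glmQLFTest, TMM, title set as covariate; at least 1 CPM in at least 11 libraries), with Benjamini-Hochberg adjustment over all tested genes and a threshold of 0.05; limma 3.58.1 and DESeq2 1.42.0 served as alternatives. SE come from the log2 fold change and the F statistic. Both fits were tested on simulated data. Ratios per library are log2 of summed TMM-scaled CPM to the mean control of the title set; for single genes a pseudocount of 0.5 was added. No protein table was used here, so levels of different members were compared per kb of RefSeq gene length and not per codon as designed. Library pairs of a group differed by at least 3.29 (RNA-seq) and 3.65 (Ribo-seq) in chi-square per degree of freedom, so all were counted. Floors cover counting error only. Columns form 3 runs in the header. Named members are, in each family, the 2 with the highest mean CPM in each assay and the most and least negative log2 fold change in each assay; further members were chosen after their values were seen. Members, gene lists and tests were chosen with earlier results of these data known. Some results of single targets are not reported here.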

Additional observations from a re-analysis of the deposited data

Results flagged for a closer look

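Of 24 sets of control values checked (summed level and 5 families, 2 assays, 2 sets of titles), 5 had a library set apart from the others by Dixon's criterion, where chance gives about 1 in 20. The sets share libraries, and the summed level is made of the families. The flags are thus not independent, and their number cannot be weighed against that rate. In RNA-seq of the 6 numbered controls, library 20_2 was highest for the summed level (15685 CPM), for H2B (4618 CPM) and for H4 (2876 CPM). In Ribo-seq of the 5 unnumbered controls, library 1 was lowest for H2A (3538 CPM) and H4 (5786 CPM). The cause was not tested. By the edgeR test 48 of 50 members were lower with large- than with small-subunit targets in RNA-seq, against 16.4% of all genes. In Ribo-seq it was 41 of 54, against 11.2%.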

How the results depend on the processing

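The count of members lower in all knockdowns stayed within 1.5 times its value under other scaling, filters, tools and set or run terms, and without any single control (40 to 47 of 50 in RNA-seq, 38 to 42 of 54 in Ribo-seq). It was smaller with fewer libraries: 19 and 18 in numbered titles alone, 23 and 13 in unnumbered titles alone, and, in settings added after the data were seen, 16 and 10 in column run 1 alone, 21 and 4 in run 2 alone and 0 and 0 in run 3 alone (RNA-seq and Ribo-seq), while the RNA-seq medians over members stayed between -0.66 and -0.85. Fewer genes were called lower over all tested genes in single runs too. Run 1 alone gave 1273 of 15526 and 1006 of 12793, run 2 alone 745 and 200, and run 3 alone 15 and 12. Fewer Ribo-seq members differed between subunits in unnumbered titles alone (21, in place of 41). Over all tested genes 723 of 12793 were then lower in large-subunit knockdowns, in place of 1437. Translation efficiency had 0 called members under all alternatives run.

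Over the 16 targets, members were called lower 429 times in RNA-seq and 474 times in Ribo-seq. With the replicate block it was 503 and 600, against 511 and 594 in the same libraries with no block. Without a replicate it was 1 to 3 and 148 to 155; the lone library is then assumed to vary like the other groups. Over all tested genes, 862 (RPL29) to 2939 (RPL15) of 15526 were called lower per target in RNA-seq. In Ribo-seq it was 820 (RPL29) to 2712 (RPS3) of 12793. These calls moved with the settings too. For RPL15 in RNA-seq, 2939 of 15526 genes were lower in the main fit. It was 3890 with the block and 3968 in the same libraries with no block. RPS15 (2927, and 2020 with the block) and RPS15A (1320 and 1034) went the other way in RNA-seq. Without a replicate, counts of calls are not given for members or for all genes, since the controls alone set the spread. Deviations of same-numbered libraries had a median r of -0.03 over 120 target pairs in RNA-seq (from -0.64 to 0.52). In Ribo-seq the median was 0.04 (from -0.32 to 0.46). The r was over 0.1 in 29.2% of pairs in RNA-seq and 23.3% in Ribo-seq. Whether some targets share a batch was not tested.

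Median summed ratios over targets ran from -0.93 to -0.72 in RNA-seq and from -0.80 to -0.65 in Ribo-seq over the alternatives. Of the named members' values under alternatives, 1033 kept direction and call, 212 lost the call, 11 gained it and 12 turned round, the last all in Ribo-seq: H2AC20 between subunits (0.093 with no set term, 0.0723 in unnumbered titles) and, for all knockdowns, H2AC8 (0.13 in numbered titles, 0.51 in run 1, -0.24 to 0.10 without single controls, above 0 without control 9), H2BC9 (0.59 and 1.28), H3C8 (1.03 and 1.16) and H4C6 (0.87 and 5.00) in numbered titles and run 1, and H3C4 (0.15 in run 1). Depth limits members under a few CPM, and H4C6 had 0 to 1 footprints in the run 1 controls.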
